A study of Homo sapiens with 6 samples.

Results

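Histone genes fall into a large class that sits in genomic clusters and a small class of replacement genes that stand alone, and both were examined in Capan-1 cells after transfection with siGNE. They were found by symbol in the platform annotation, as those starting with H1-, H2AC, H2BC, H3C, H4C, H2AZ, H2AX, H2AJ, H3-3 or MACROH2A. This gave 57 genes of the 19775 that had a probe set of their own, of which 45 are clustered, 11 are replacement genes and 1, H1-10-AS1, is an antisense RNA that shares only the prefix. Each gene was read from the probe set with the highest mean over the 6 arrays, and probe sets whose name ends in _x_at, which marks possible cross-hybridisation, were used only where the gene had no other. The mean level thus chose the probe sets and is given as a description, while the difference between the groups chose none of them. The set of genes and the paired comparison used below were, however, chosen with earlier results of these data known. The clustered class holds H1-1 to H1-6 and all H2AC, H2BC, H3C and H4C symbols, among them H2BC12L, which lies outside the clusters, and the pseudogenes H2AC5P and H4C10P. The replacement class includes the pseudogene H1-9P.

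Of the 16 clustered genes that could be tested, 7 rose and 0 fell. The histone H2B genes H2BC4 (2.97-fold) and H2BC12 (1.59-fold) and the histone H4 gene H4C8 (2.74-fold) were among the 7. Of the 8 replacement genes that could be tested, 0 rose and 1 fell, the linker histone gene H1-10, to a level 2.18-fold below control. All other members were at background or did not pass. These calls come from a limma fit that pairs the arrays by their number (adjusted p under 0.05), and none of them was made in the limma fit without the pairing. In the paired fit 4.13% of all tested probe sets were called higher and 5.35% lower.

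Nucleosomes are built from histones H2A, H2B, H3 and H4, with a linker histone H1 at the entry of the DNA. Clustered histone genes are transcribed mainly in S phase, when new DNA has to be packed, and their messenger RNAs typically end in a stem-loop bound by SLBP in place of a poly(A) tail, although several of them can also be polyadenylated. Replacement histones such as H2A.Z, macroH2A and the H3 variant of H3-3A are made from ordinary polyadenylated messages throughout the cell cycle and are placed into chromatin independently of replication. H2AX stands between the classes, since it gives both a stem-loop message tied to replication and a longer polyadenylated one. Affymetrix labelling conventionally starts from an oligo(dT) primer, so an array of this kind would read clustered genes chiefly through their polyadenylated transcripts. The form of the transcripts was not measured here.

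Capan-1 is an established human pancreatic carcinoma line. Per the labels, 3 arrays carried RNA of cells transfected with siGNE and 3 of cells transfected with allStar, the control, both given 2 times at an interval of 48 h, with harvest 72 h after the second transfection. GNE encodes the enzyme that opens sialic acid synthesis. The number of siRNAs is not given in the sources used here, and nothing in the labels ties the arrays of a group to different cultures, so every p-value reflects array-to-array spread that could be purely technical. The titles carry the numbers 1 to 3 in either group, and arrays of one number are called a pair. All values are log2 expression values as normalized by the authors, and values near 3, the array median, are close to background. A change in the share of cells in a phase of the cell cycle and a change in RNA per cell cannot be told apart in such bulk samples.

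The GNE message was at 15.0%, 32.8% and 40.9% of control in pairs 1, 2 and 3 (log2 difference -1.88, limma adjusted p 0.0348 with the pairing and 0.131 without it). All 6 epithelial markers were well detected, while the leukocyte, endothelial, hepatocyte and endocrine markers that had a probe set and 4 of 5 fibroblast markers had means below 4. The remaining fibroblast marker, COL1A1, read 8.03 in control and 8.74 in siGNE cells (limma adjusted p 0.0441 with the pairing and 0.512 without it), and its part in the histone values was not tested. The gap between the 3′ and 5′ control probe sets of ACTB, a sign of RNA integrity, was 1.08, 1.44 and 0.53 in the control arrays and 1.48, 1.25 and 0.49 in the siGNE arrays 1, 2 and 3. That gap was smallest in pair 3 and overlapped between the groups.

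A probe set was tested where its mean over all arrays exceeded 4, and 24 of the 57 histone genes met this, 16 clustered and 8 replacement. The other 33, 29 of them clustered, read between 1.89 and 3.63 and were not tested. No gene met the limit through one group only. Over all 22085 tested probe sets, 4.13% were called higher and 5.35% lower with the pairing, against 7 of 16 tested clustered genes called higher and 1 of 8 tested replacement genes called lower. With the pairing the unadjusted p in limma was under 0.05 for 31.6% of all tested probe sets, and for 11 of the 16 clustered and 5 of the 8 replacement genes. In the limma fit without the pairing 0.0408% were called higher and 0% lower, and 0 of the 24 histone genes were called, with an unadjusted p under 0.05 for 10 clustered and 3 replacement genes beside 14.6% of all probe sets. With no filter on the mean, the paired limma fit called 0 of 54613 probe sets, with 7167 at an unadjusted p under 0.05, among them 10 clustered and 6 replacement genes. All calls below therefore rest on the pairing and on the filter, and leaving out any 1 of the 3 pairs left 0 of them. Counting only probe sets that end in neither _x_at nor _s_at, a suffix for sets shared by several transcripts, 3 clustered calls and 0 replacement calls were left. Of the tested replacement genes only MACROH2A2, which was not called, was read from such a probe set, so the 0 follows from that choice.

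**Figure D1:**
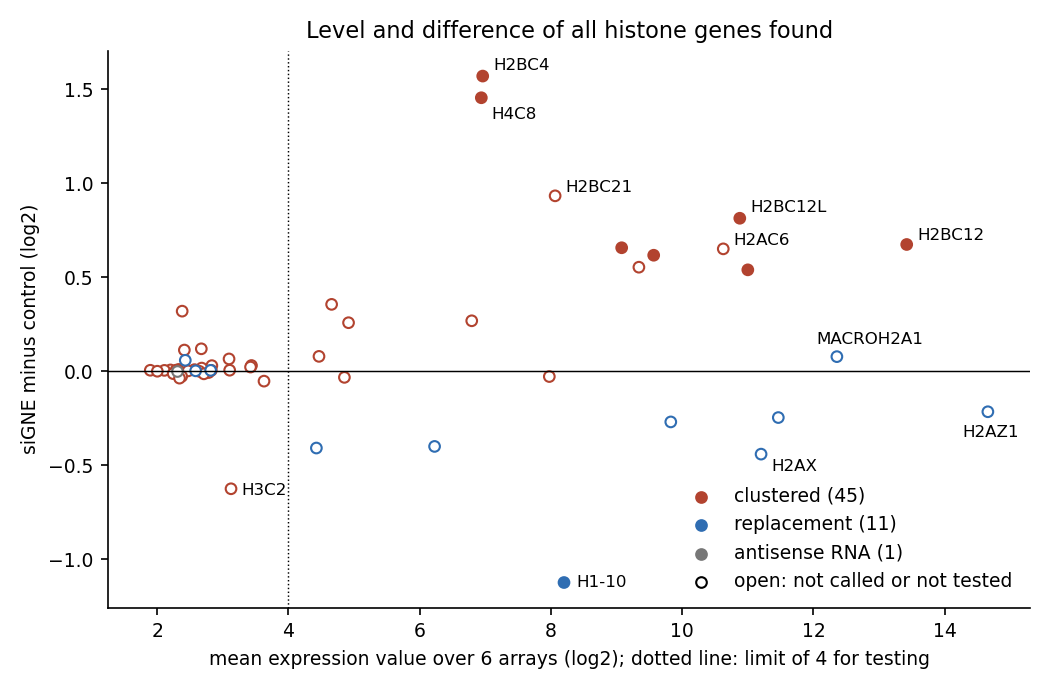
Mean log2 expression value over the 6 arrays (x axis) and log2 difference siGNE minus control (y axis) for all 57 genes, with filled points for genes called by limma with the pairing and a dotted line at the limit of 4. Left of the line the points lie at 0 apart from a few, of which H3C2 is the lowest at -0.63. Right of it the clustered genes reach from -0.03 to 1.57 and the replacement genes from -1.12 to 0.08.

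Histone H2B genes gave most of the calls. Of 14 clustered H2B genes, 7 were tested, and 6 of these rose while the seventh, H2BC21, did not pass. Over all tested probe sets 4.13% were called higher with the pairing. The 6 are not separate readings, since H2BC12L, H2BC9, H2BC6 and H2BC5 were read from probe sets ending in _x_at. Only H2BC4 and H2BC12 were called from probe sets without such a suffix. H2BC4 read 6.17, 6.11 and 6.24 in the control arrays 1, 2 and 3 and 7.96, 7.80 and 7.47 in the siGNE arrays. Every siGNE array stood more than a log2 unit above every control array. The difference was 1.57 (SE 0.14), with a limma adjusted p of 0.0230 with the pairing and 0.0600 without it.

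H2BC12, another H2B gene of the major cluster, read 13.19, 13.33 and 12.73 in control and 13.95, 13.90 and 13.42 in siGNE arrays. Array 3 was the lowest of its group in both, so the groups came close while each pair differed by a similar amount, 0.76, 0.57 and 0.69. The mean difference was 0.67 (SE 0.09, limma adjusted p 0.0286 with the pairing and 0.251 without it). H2BC12L, which is read only by a cross-hybridising probe set, rose by 0.81 (SE 0.10, limma adjusted p 0.0274), from a control mean of 10.47 ± 0.04 to 11.28 ± 0.15 with siGNE (SD, 3 arrays a group).

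H2BC9, H2BC6 and H2BC5 rose by 0.66, 0.62 and 0.54, with limma adjusted p of 0.0381, 0.0391 and 0.0496 with the pairing and 0.158, 0.131 and 0.197 without it. All 3 were read from probe sets ending in _x_at, which can pick up other H2B transcripts, so their separate values are uncertain. H2BC5 lies at the edge of the threshold, and its second probe set, which also ends in _x_at and is no independent check, rose by 0.54 (limma adjusted p 0.0460).

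H2BC21, the H2B gene of a smaller cluster on chromosome 1, read 7.28, 7.39 and 8.12 in control and 8.76, 8.24 and 8.59 in siGNE arrays. The groups did not overlap, but the pairs ranged from 1.48 in pair 1 to 0.47 in pair 3. The mean difference of 0.93 (SE 0.21) had a limma adjusted p of 0.0574 with the pairing and 0.202 without it. The 7 untested H2B genes differed by -0.01 to 0.06.

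**Figure D2:**
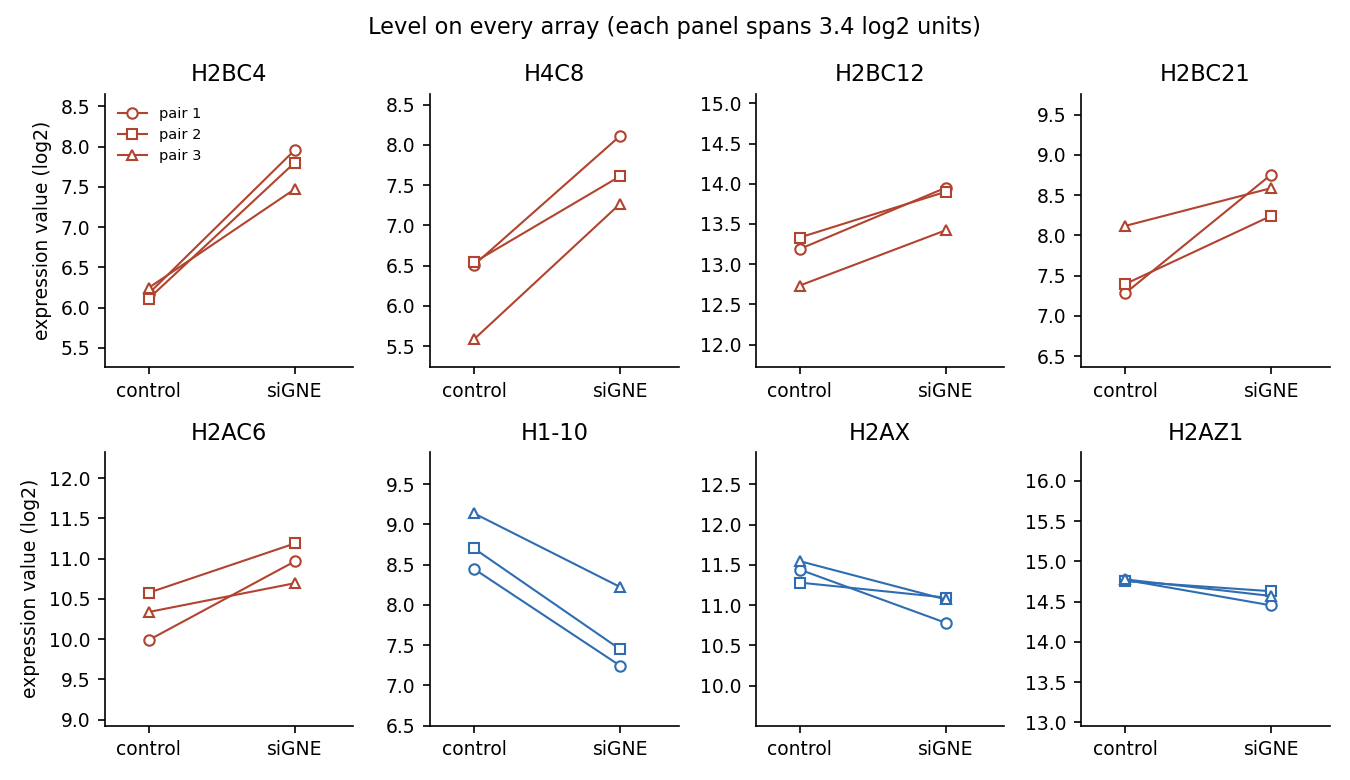
Log2 expression value on every array for 5 clustered genes (red) and 3 replacement genes (blue), with a line joining the control and siGNE array of each pair and the same log2 span in every panel. The lines climb in all red panels and descend in all blue ones, but the panels show a selection of the tested genes. Of all 16 tested clustered genes 13 were higher in all 3 pairs, and of all 8 tested replacement genes 6 were lower in all 3. The tested genes H1-2, H4C9, H2AC17, MACROH2A1 and H2AJ, which are not shown, differed in sign between the pairs. H1-10 falls from between 8.45 and 9.14 to between 7.24 and 8.22, and H2AZ1 covers the shortest distance.

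The DNA just before the start is shown for H2BC4, the H2B gene with the highest difference, and for 3 others among those with the octamer marked below. H2BC5, which was called and has no octamer, is not shown. The sequences are RefSeq promoter windows of GRCh38.p14, 5′ to 3′ on the strand of the gene and ending at the base before its start. Capitals mark each CCAAT (the CCAAT box), TATAAA (the TATA box) and ATTTGCAT (the octamer bound by POU2F1) on either strand, none of which overlaps another. H2BC4 (chr6:26123927-26124171, minus strand) is given up to the start of H2AC6, a histone H2A gene on the plus strand, so that its 245 bases are everything between both starts, and the reversed TATA box 220 bases before H2BC4 lies towards H2AC6. For H2BC12 (chr6:27146859-27147008, minus strand), H2BC21 (chr1:149886683-149886832, minus strand) and H2BC9 (chr6:26251464-26251613, plus strand) the last 150 bases are shown, for H2BC12 before the first of its 2 listed starts.
H2BC4: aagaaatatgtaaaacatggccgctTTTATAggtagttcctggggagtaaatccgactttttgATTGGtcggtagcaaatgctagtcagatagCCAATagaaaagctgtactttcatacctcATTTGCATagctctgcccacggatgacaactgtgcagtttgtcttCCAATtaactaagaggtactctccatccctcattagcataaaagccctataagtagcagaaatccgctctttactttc
H2BC12: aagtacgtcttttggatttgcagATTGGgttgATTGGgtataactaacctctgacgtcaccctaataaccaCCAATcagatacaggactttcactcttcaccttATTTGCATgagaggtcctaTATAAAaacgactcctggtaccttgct
H2BC21: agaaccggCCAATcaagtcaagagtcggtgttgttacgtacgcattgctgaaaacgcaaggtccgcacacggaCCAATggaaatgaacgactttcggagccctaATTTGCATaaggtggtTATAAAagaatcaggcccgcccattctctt
H2BC9: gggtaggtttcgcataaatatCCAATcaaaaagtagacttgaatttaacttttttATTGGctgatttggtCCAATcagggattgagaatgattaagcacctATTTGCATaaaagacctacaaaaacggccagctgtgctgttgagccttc

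The octamer begins 46 bases before the start in H2BC12 and in H2BC21, 49 bases before it in H2BC9 and 123 bases before it in H2BC4. Each of these windows also carries a CCAAT on the strand of the gene that begins between 77 and 80 bases before the start. Over the 250 bases before the start, 10 of the 13 clustered H2B genes with an entry hold an octamer, or 76.9%, as do 6 of 8 clustered H2A genes. The share over all 27305 genes of the table was 2.03%, and no clustered H1, H3 or H4 gene and no replacement gene with an entry held one. Matches on either strand were counted, so the octamer between H2BC4 and H2AC6 counts for both genes. The H2A and H2B shares are therefore not independent. Among the tested H2B genes with an entry, 5 of 6 had an octamer, H2BC5 being the one without. The remaining H2B genes with an octamer were below the limit for testing. Of the clustered genes called higher, 4 of the 6 with an entry held one. Whether the octamer bears on the differences was not tested. CCAAT stood in 87.5% of the clustered genes, 80.0% of the replacement genes and 37.0% of all genes, and TATAAA in 67.5%, 30.0% and 13.0%. Such matches describe the sequence and show no binding.

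The 5 tested clustered H2A genes had a median difference of 0.35, and none passed the test. H2AC6, the divergent neighbour of H2BC4, read 9.99, 10.58 and 10.34 in control and 10.97, 11.19 and 10.70 in siGNE arrays. The groups did not overlap, and the pairs differed by 0.98, 0.61 and 0.36, an order also seen in the median of the tested clustered genes. The mean difference was 0.65 (SE 0.14, limma adjusted p 0.0560 with the pairing and 0.235 without it). H2AC25, from another small cluster, differed by 0.55 (SE 0.16) with overlapping groups, H2AC8 by 0.35, H2AC14 by 0.27 and H2AC17 by 0.08, with limma adjusted p between 0.0833 and 0.677 with the pairing.

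Of 9 clustered H4 genes 2 were tested. H4C8 read 6.51, 6.54 and 5.59 in control and 8.11, 7.61 and 7.27 in siGNE arrays. Array 3 was again the lowest in each group, yet its siGNE value exceeded all control values. The difference was 1.45 (SE 0.15, limma adjusted p 0.0242 with the pairing and 0.143 without it), and a second probe set of H4C8 rose by 1.39 (SE 0.17, limma adjusted p 0.0281). H4C9, with 4.87 in control and 4.84 in siGNE cells, differed by less than the spread between arrays.

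The start region of H4C8 (chr6:26285535-26285684, minus strand, RefSeq, GRCh38.p14) is shown as well, and holds no exact match to the 3 motifs in its last 150 bases. Only exact matches were marked, so near matches such as its tataag are not in capitals. Whether these motifs bear on the difference was not tested.
H4C8: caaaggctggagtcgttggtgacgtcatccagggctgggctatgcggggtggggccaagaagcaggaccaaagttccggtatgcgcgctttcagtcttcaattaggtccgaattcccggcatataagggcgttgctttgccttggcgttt

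Among clustered H3 and H1 genes only H3C6 and H1-2 were tested. H3C6 differed by 0.26 (SE 0.13) and H1-2, a somatic linker histone, by -0.03 (SE 0.19), with limma adjusted p of 0.249 and 0.931 with the pairing. H1-2 went up by 0.49 in pair 1 and down by 0.23 and 0.35 in the others. The 7 tested H2B genes, in contrast, were higher in all 3 pairs, as were 26.5% of all tested probe sets. Below the limit, H3C2 read 4.72 on control array 3 and between 2.79 and 2.83 on the other 5 arrays, so its difference of -0.63 comes from 1 array. H1-3 read 3.16 on siGNE array 3 and between 2.18 and 2.25 elsewhere.

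Of the 8 tested replacement histone genes 6 were lower in all 3 pairs and 0 were higher in all 3, where 29.1% of all tested probe sets were lower and 26.5% higher in all 3. H1-10, a linker histone expressed outside S phase as well, read 8.45, 8.70 and 9.14 in control and 7.24, 7.45 and 8.22 in siGNE arrays. All siGNE values were below all control values, and array 3 was the highest of each group. The difference was -1.12 (SE 0.11, limma adjusted p 0.0241 with the pairing and 0.190 without it). It was the only replacement gene that passed. Its start region (chr3:129316287-129316436, minus strand, RefSeq, GRCh38.p14) is shown as the one of a gene that fell, with the TATA box as its only match.
H1-10: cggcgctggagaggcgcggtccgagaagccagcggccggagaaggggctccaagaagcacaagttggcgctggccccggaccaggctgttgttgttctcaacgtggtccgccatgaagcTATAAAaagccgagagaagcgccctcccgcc

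H2AX, whose product is phosphorylated at DNA breaks, read 11.44, 11.28 and 11.55 in control and 10.78, 11.09 and 11.07 in siGNE arrays, without overlap. The difference was -0.44 (SE 0.12, limma adjusted p 0.0832 with the pairing and 0.248 without it). Its other tested probe sets differed by -0.61 and -0.20.

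The H2A.Z genes gave small differences of one sign on every probe set. H2AZ1 read 14.77, 14.75 and 14.78 in control and 14.45, 14.63 and 14.57 in siGNE arrays, a difference of -0.22 (SE 0.09), and its second probe set differed by -0.30. H2AZ2 differed by -0.25 (SE 0.09), and its 3 other probe sets by -0.37, -0.38 and -0.22. None of these 6 passed in limma, with adjusted p between 0.0601 and 0.213 with the pairing.

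MACROH2A2, which carries a large globular domain beside its histone part, read 9.95, 10.01 and 9.92 in control and 9.67, 9.68 and 9.73 in siGNE arrays. The groups did not overlap, and the difference was -0.27 (SE 0.09, limma adjusted p 0.110 with the pairing and 0.320 without it). Its relative MACROH2A1 differed by 0.08 (SE 0.09), and 2 other tested probe sets of that gene by 0.39 and 0.09. H3-3A differed by -0.40 (SE 0.12) and H2AJ by -0.41 (SE 0.23), both with overlapping groups. H2AJ was read from a probe set close to the limit, at 4.63 and 4.22, while its 2 tested cross-hybridising probe sets differed by 0.07 and 0.10, so its direction depends on the probe set.

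**Figure D3:**
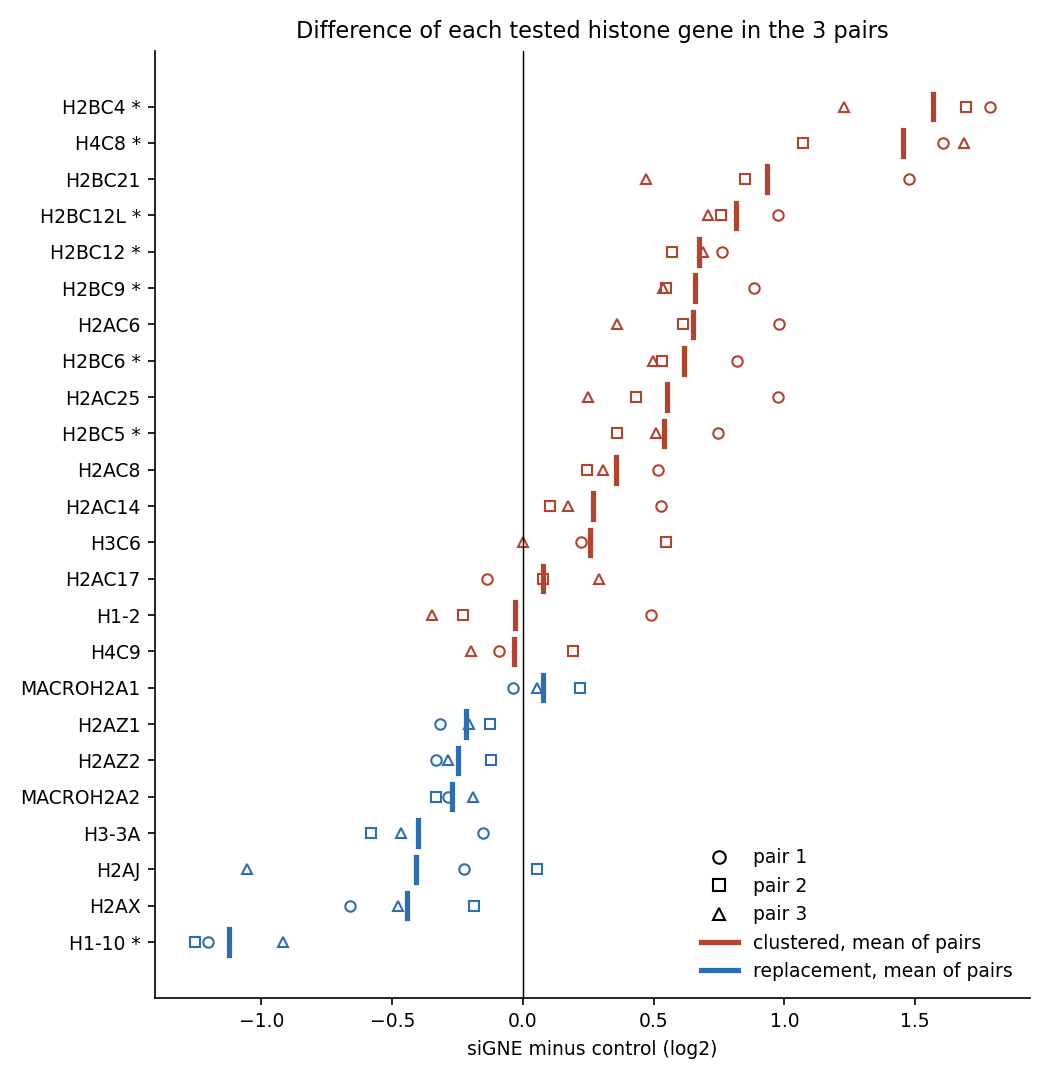
Log2 difference siGNE minus control of each of the 24 tested genes in pairs 1, 2 and 3 (symbols) with their mean (bar), clustered genes in red and replacement genes in blue; an asterisk marks a call by limma with the pairing. The red bars run from -0.03 to 1.57 and the blue ones from -1.12 to 0.08. For most clustered genes the circle of pair 1 lies farthest right.

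Across the classes, the median difference over all 45 clustered genes was 0.01, with 29 of them below the limit, and that over the 16 tested ones was 0.58, with 0.79, 0.54 and 0.41 in pairs 1, 2 and 3. The median over all 11 replacement genes was -0.25, with -0.23, -0.12 and -0.21 in the pairs, and -0.34 over the 8 tested ones. Over all 10733 tested genes the median was -0.02. In the clustered class 11 tested genes had siGNE values entirely above the control values and 0 entirely below, where 8.39% of all probe sets were entirely above. In the replacement class 5 of 8 lay entirely below and 0 above, where 12% of all probe sets were entirely below. The difference between the classes is described and was not tested.

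Probe sets annotated to several histone genes were read as well, although no gene can be named from them. There were 28, of which 23 were tested, and with the pairing 7 rose and 0 fell in limma. Over all tested probe sets 4.13% were called higher and 5.35% lower. Several of the shared probe sets list the same genes and are not independent of each other. Some also list genes already called above, such as H2BC4 and H2BC6, and are no independent check of those. All 5 tested probe sets of H2B genes were higher in every pair, by 0.52 to 1.45, and 4 of them rose. A pair of probe sets for 2 H2A genes rose by 1.20 and 1.30 (limma adjusted p 0.0400 and 0.0298). A probe set listed for 11 H3 and H2A genes read 6.07, 5.97 and 5.47 in control and 7.39, 7.47 and 6.80 in siGNE arrays. It rose by 1.39 (SE 0.09, limma adjusted p 0.0179 with the pairing and 0.105 without it). A probe set for 10 of the same H3 genes differed by 0.24 (limma adjusted p 0.368), and a pair of probe sets for 6 other H2A genes by 0.10 and 0.06 (limma adjusted p 0.573 and 0.709), all 3 with overlapping groups.

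The H4 probe sets did not move as one. One, listed for 14 H4 genes with H4C8 among them, read 13.21, 12.76 and 12.83 in control and 11.79, 12.37 and 11.61 in siGNE arrays. Its siGNE values were all below its control values, the reverse of H4C8. The difference was -1.01 (SE 0.22, limma adjusted p 0.0547 with the pairing and 0.147 without it). Another probe set for the same 14 genes differed by 0.54 and the remaining tested one by -0.16.

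The 8 probe sets annotated to several H3-3 genes, which encode the histone variant H3.3, all had negative mean differences, from -0.74 to -0.04, and none passed (limma adjusted p between 0.0584 and 0.806 with the pairing). In 5 of them the siGNE values were all below the control values, where 12% of all tested probe sets were.

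**Figure D4:**
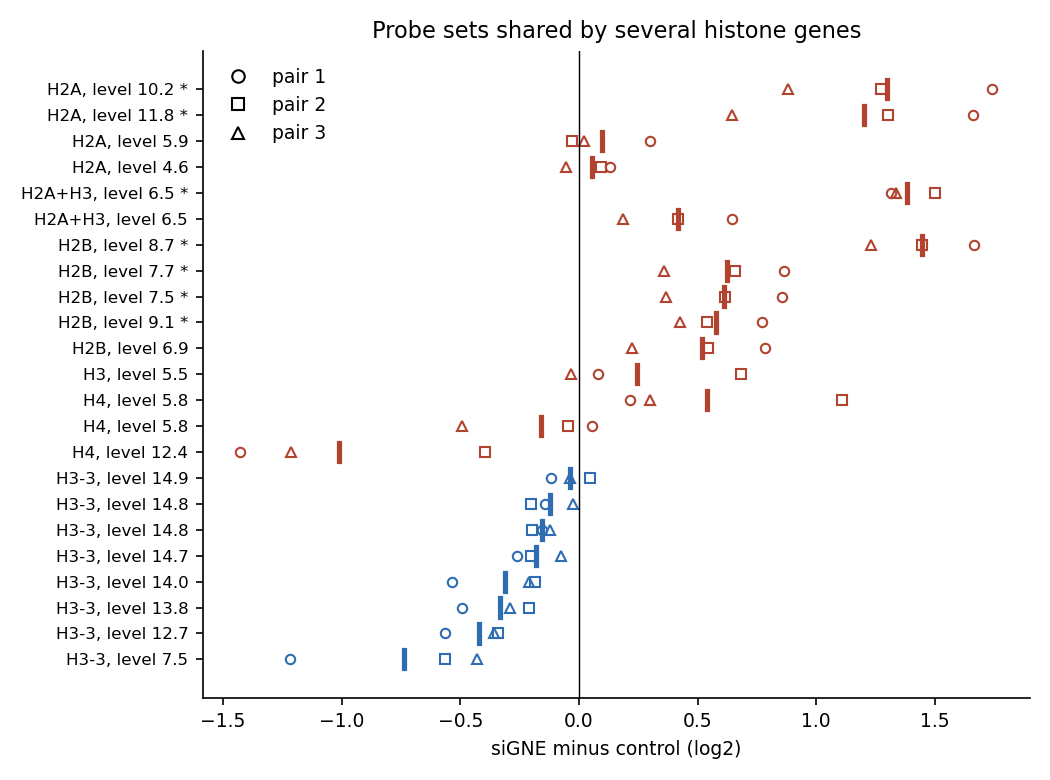
Log2 difference siGNE minus control of the 23 tested probe sets annotated to several histone genes, by family and mean log2 level, in pairs 1, 2 and 3 (symbols) with the mean (bar); an asterisk marks a call by limma with the pairing. H2B and most H2A probe sets lie right of 0, the 3 probe sets of 14 H4 genes stand at -1.01, -0.16 and 0.54, and those of H3-3 (blue) lie left of 0 or at it.

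Genes that make, process and handle histones were examined as 3 lists. Of 15 histone messenger RNA factors 14 were tested and 0 passed in limma with the pairing, with a median difference of -0.06. An unadjusted p under 0.05 was found for 5 of the 14, near the 31.6% of all tested probe sets. CASP8AP2, needed for histone gene transcription, differed by -0.52 (SE 0.12), the zinc finger protein ZNF473, a processing factor, by 0.53 (SE 0.13), the scaffold SYMPK by -0.27 and the endonuclease CPSF3 by -0.38. The first 2 had a limma adjusted p of 0.0650 and 0.0655 with the pairing. The stem-loop binding protein SLBP differed by -0.29 (SE 0.15) and the histone locus activator NPAT by 0.03 (SE 0.17), both of them singled out with their values already known.

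Of 21 histone chaperones and exchange factors 0 passed with the pairing in limma, with a median of -0.26. An unadjusted p under 0.05 was found for 8 of the 21, again near the 31.6% of all tested probe sets, and 14 were lower in all 3 pairs, where 29.1% of all tested probe sets were. The 4 with the smallest p were ASF1B, NASP, CHAF1A and HJURP. ASF1B, which carries H3 and H4 to new DNA, differed by -0.91 (SE 0.20), NASP by -0.71 (SE 0.16), the CAF-1 subunit CHAF1A by -0.63 (SE 0.14) and HJURP, the chaperone of the centromeric H3 variant, by -0.79 (SE 0.18), with limma adjusted p between 0.0578 and 0.0606 with the pairing.

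Of 30 S phase genes 29 were tested, and with the pairing 14 fell and 0 rose in limma, with a median of -0.71. Over all tested probe sets 5.35% were called lower and 4.13% higher in that fit. GINS2, CCNE2, MCM2 and MCM7, of the replicative helicase and the cyclin that starts S phase, fell by 0.93, 1.15, 0.86 and 0.94 (limma adjusted p between 0.0284 and 0.0367 with the pairing and between 0.0806 and 0.136 without it). The S phase median was -1.15, -0.58 and -0.58 in pairs 1, 2 and 3, and the tested clustered histone genes had their highest median in the same pair 1. Whether the lower S phase messages bear on the histone values was not tested.

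**Figure D5:**
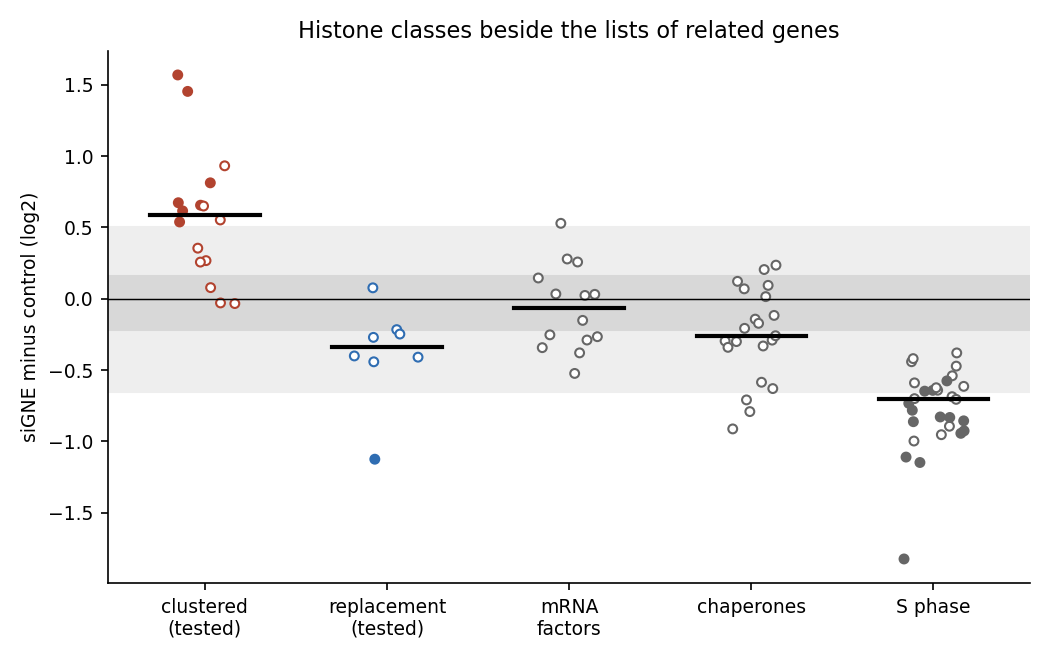
Log2 difference siGNE minus control of tested clustered and replacement histone genes and of the 3 lists, 1 point a gene, filled where called by limma with the pairing, with a black bar at the median. Dark and light grey bands hold the 25 to 75 and the 5 to 95 percentile range of all 10733 tested genes. The medians are 0.58, -0.34, -0.06, -0.26 and -0.71 from left to right.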

How the data were processed

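RNA of 6 samples was read on 1 array each, and the values deposited by the authors are on a log2 scale, for 54675 probe sets. Per the submitters' processing notes the authors used GCRMA, which models background from probe sequence. The sources used here give neither its version nor the arrays it was run on together. Arrays have no read depth, and 3 arrays a group limit the precision. Genes came from the platform annotation, with symbols by gene identifier from RefSeq (GRCh38.p14).

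Differences were tested with limma 3.58.1 in R 4.3.3 (lmFit, eBayes), with Benjamini-Hochberg adjustment over 22085 probe sets with a mean above 4, control probe sets left out. The main fit had the pair number as a block (2 residual degrees of freedom), as the definition of the histone set asks; the fit without it (4 degrees) is given beside it. The numbers come from the titles. Deviations from the group means correlated at 0.58, 0.71 and 0.83 for same numbers and at -0.64 to 0.17 otherwise. The script was tested on simulated data.

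Named are all tested histone genes, GNE and from every list at most 4 genes, those lowest in unadjusted p with the block; SLBP and NPAT are named beyond this rule, chosen after their values were seen. The members, lists and the choice of the paired fit were made with earlier results of these data known. Alternatives were other filters, normalizations, variance priors, weights, thresholds and probe set choices, and leaving out arrays.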

Additional observations from a re-analysis of the deposited data

How the results depend on the processing

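Some settings can change calls but not differences, among them fits without the replicate block, without the filter or with another variance prior. The ranges below therefore come from the other settings. Over 19 settings H2BC4 ran from 1.46 to 1.74, H4C8 from 1.14 to 1.65, H2BC12 from 0.50 to 0.84 and H1-10 from -1.42 to -0.93, while each of them lost its limma call in 11, which are the fits without the replicate block, without a filter, and with an array or a pair left out. H2BC5 lost it in 13. Without the replicate block limma called 9 probe sets higher and 0 lower, and 0 clustered, 0 replacement and 0 S phase genes (the unadjusted p was under 0.05 for 3223 probe sets). With no filter these counts were all 0 in limma. Leaving out pair 1, 2 or 3 left 0 calls in every class and list in limma, where an unadjusted p under 0.05 was found for 5022 to 5529 probe sets, and leaving out single arrays without the block also left 0, with 2023 to 3508; the cause was not tested. The clustered median then ran from 0.00679 to 0.0203 and the replacement median from -0.26 to -0.20.

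Over all probe sets, calls higher and lower numbered 1374 and 1944 with a mean above 6, 1373 higher with a trended prior, and 2068 and 2755 at an adjusted p under 0.1. Clustered calls rose to 11 at that threshold and fell to 3 without probe sets ending in _x_at or _s_at, where fewer genes were counted. Replacement calls lower were 2 with a trended prior, 3 at 0.1, and 0 without those probe sets, where the median was 0.0025. The S phase list had 23 calls lower with a mean above 6 and 25 at 0.1. The chaperone list had 5 calls lower with a mean above 6, 4 with quantile normalization, 4 with a trended prior and 5 at 0.1. The messenger RNA factors had 1 call higher and 1 lower with a mean above 6 and at 0.1, and 1 higher with quantile normalization. The clustered median was -6.26e-05 with arrays shifted to a common median and 0 with values under 4 set to 4. H1-2 changed sign to 0.0100 with quantile normalization, and to 0.114 and 0.101 without the block and control array 2 or siGNE array 3; leaving out a pair, it ran from -0.288 to 0.130. H2AC17 ran from -0.0289 to 0.185 and H4C9 from -0.146 to 0.0493 when a pair was left out, and without the block and control array 3 they turned to -0.0852 and 0.0803. H3C6 turned to -0.0160 without the block and siGNE array 2; none of these genes was called. Signals near background limit what can be seen for 33 of the 57 genes.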
